A study of Mus musculus with 2 samples.

Results

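The nuclear-encoded subunits of the mitochondrial respiratory chain and ATP synthase were followed in 2 cultures of mouse intestinal subepithelial myofibroblasts (ISEMFs), the contractile fibroblast-like cells that lie under the intestinal epithelium. The members were taken by name, as protein-coding genes whose symbols begin with Nduf and a subunit letter (a, b, c, s or v), are Sdha to Sdhd, or begin with Uqcr, Cox4 to Cox8 or Atp5. This rule took 87 of the 22379 protein-coding genes and of 37309 genes in all, with 86 distinct symbols because Ndufb8 was listed under 2 identifiers. Complex I contributed 38 members, complex II 4, complex III 8, complex IV 19 and complex V 18. The rule used no measured value. It took in some genes that are not subunits: Cox4nb belongs to a protein complex of the endoplasmic reticulum, Atp5s and Atp5sl are not structural parts of the ATP synthase, and Atp5l-ps1 carries the name of a pseudogene. Ndufa4 is named for complex I and is now usually counted with cytochrome c oxidase.

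The respiratory chain carries electrons from NADH (complex I) and succinate (complex II) through ubiquinone to complex III, and by cytochrome c to complex IV, which reduces oxygen. Complexes I, III and IV pump protons across the inner mitochondrial membrane, and complex V, the ATP synthase, uses the gradient to make ATP. Most subunits are encoded in the nucleus and imported, while a few of the most hydrophobic ones are encoded in the mitochondrial genome, so that each complex except complex II is built from the products of both genomes. Several complex IV subunits exist as a form found in most tissues and a second form typical of heart and skeletal muscle, lung or testis.

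Supportive ISEMFs were cultured from the small intestine of 5-day-old neonatal C57BL/6 mice and non-supportive ISEMFs from that of 2-month-old adult C57BL/6 mice, the names referring to how well each culture sustained intestinal epithelium grown beside it. No allele or treatment separated the groups. There was 1 RNA library of each, so that no difference has a replicate check, no test was made, and the age of the mice cannot be told apart from the population. The number of mice behind each culture was not given in the sources used here. Codes in the names of the deposited table and of a column differ between the cultures and may record passages, but no source used here explains them, so a difference in time in culture cannot be told apart from the population either. Levels are given as RPKM, reads on a gene scaled to exon length and library size, and differences as the ratio of supportive to non-supportive RPKM, with a 95% exact interval from the read counts that covers counting error only. Log2 ratios were computed after adding 0.1 to each RPKM.

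The libraries held 50674472 (supportive) and 49615497 (non-supportive) reads on genes. Of the defining markers, Acta2 (smooth muscle actin) stood at RPKM 908 in supportive and 1410 in non-supportive ISEMFs, Vim (vimentin) at 325 and 407, and Des (desmin) at 0.575 and 3.40. Of 5 epithelial markers, Epcam, Vil1 and Cdx2 had at most 8 reads in either library, while Cdh1 (E-cadherin) had 159 supportive and 18 non-supportive reads. Lgr5, a marker of intestinal stem cells, had 6702 and 4 reads, or RPKM 7.22 and 0.00443. All 8 macrophage markers that reached RPKM 1, of 10 listed, were lower in the supportive library, with a summed RPKM over the list of 9.55 against 129, and Ptprc, Itgam, Emr1 and Tyrobp had no read there. The summed RPKM of 6 smooth muscle markers was 406 against 661. In bulk RNA, fewer cells of a type and less RNA per cell cannot be told apart, and the part of these differences in the results below was not tested.

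Because the authors kept only reads with a single place in the genome, the level of a subunit also depends on whether its sequence is found elsewhere, and many respiratory genes have processed pseudogenes. A pair of members shows the range. A 50-base stretch of the Ndufs3 coding sequence differs from the annotated pseudogene Gm12251 by 2 bases, set in capitals, which is as many mismatches as the alignment allowed. A stretch of the Atp5g2 coding sequence, in contrast, is found letter for letter at the annotated genes Gm10231 (chr17:5816375-5816424) and Gm10175 (chr7:24731986-24732035), so that a read of it has no single place. All positions are on mm9 and all of these stretches are on the minus strand.
Ndufs3, chr2:90743044-90743093: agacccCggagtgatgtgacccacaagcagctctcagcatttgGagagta
Gm12251, chr11:58206875-58206924: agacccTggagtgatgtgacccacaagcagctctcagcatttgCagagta
Atp5g2, chr15:102495545-102495594: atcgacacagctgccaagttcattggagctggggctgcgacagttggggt

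Of the 87 members, 70 reached RPKM 1 in either library, with 202 to 168737 reads over both libraries. These were 33 members of complex I, all 4 of complex II, 7 of complex III, 12 of complex IV and 14 of complex V. The other 17 were below that level, 4 of them without a read. Passing the level could depend on a single library for Ndufa7, Ndufb4, Cox6b2 and Atp5g1, which were below RPKM 1 in the other. Together the members took 0.465% (supportive) and 0.492% (non-supportive) of all counted reads, and their summed RPKM was 1690 against 1749. The order of the 70 levels was nearly the same in both libraries (Spearman's rho 0.97 across genes, which are not independent replicates).

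**Figure D1:**
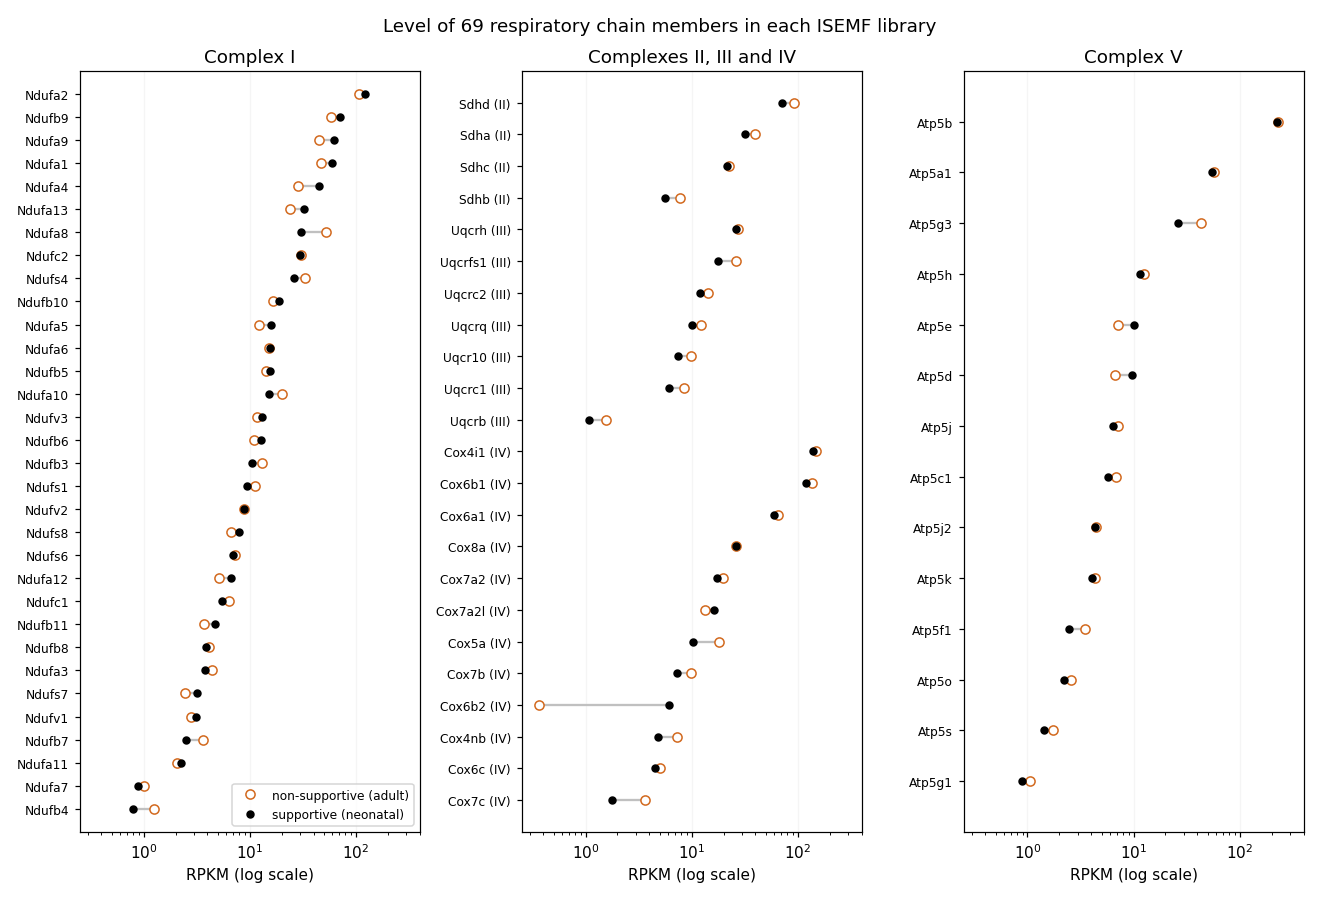
RPKM (horizontal log axis) of 69 of the 70 members that reached RPKM 1 in either library, by complex. Filled points are the supportive and open points the non-supportive library, 1 library each, joined by a line. Atp5b is highest, at 224 and 231, and the longest line is that of Cox6b2, at 6.12 and 0.366.

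Few members were far apart between the libraries. A ratio of at least 1.5 in either direction was found for 8 of the 70 members (11.4%), against 35.7% of the 9110 protein-coding genes that reached RPKM 1. Cox6b2 and Ndufa4 were higher in the supportive library, where 16.7% of those genes were, and Cox7c, Cox5a, Ndufa8, Atp5g3, Ndufb4 and Cox4nb were lower, where 19% were. The median log2 ratio of the members was -0.12, beside -0.07 for all protein-coding genes, and the middle 50% of members spanned 0.47 log2 units against 0.81. At RPKM 5 or more the share was 6 of 53 members (11.3%) beside 35.7% of 4725 genes, and the order of the medians turned, with -0.069 for members and -0.13 for genes. Just inside the limit were Cox4nb at 1.51-fold and Ndufb4 at 1.51-fold, and just outside it Uqcrfs1 at 1.47-fold and Ndufb7 at 1.45-fold, on the scale with 0.1 added.

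The complexes were not alike in direction. The median log2 ratio of complex I was 0.10, and 19 of its 33 members were above 0. Outside complex I the median was -0.22, and 33 of 37 members were below 0, as were 54.9% of all protein-coding genes that reached RPKM 1 and 59.3% of those at RPKM 5 or more. All 4 members of complex II and all 7 of complex III were below 0, with medians of -0.34 and -0.39, as were 10 of 12 members of complex IV (median -0.17) and 12 of 14 of complex V (median -0.15). Summed RPKM came to 697 (supportive) and 640 (non-supportive) for complex I, to 130 and 162 for complex II, 81.4 and 100.3 for complex III, 417 and 456 for complex IV, and 364 and 391 for complex V. Members with under 10% of their sequence copied elsewhere in the genome pointed the same way, with 14 of 22 above 0 in complex I (median 0.11) and 3 of 16 outside it (median -0.28). Of these, complex IV had only 3, Cox4nb among them, and complex V 5, with a median of -0.07, near that of all genes. With at least 10% copied, 5 of 11 members of complex I were above 0 (median -0.05) and 1 of 21 outside it (median -0.17). These are differences between 1 library and 1 library, and the medians of complexes II to V lay below that of all genes while complex I lay above it. At RPKM 5 or more this no longer held for complex V, with a median of -0.11 beside -0.13 for genes.

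**Figure D2:**
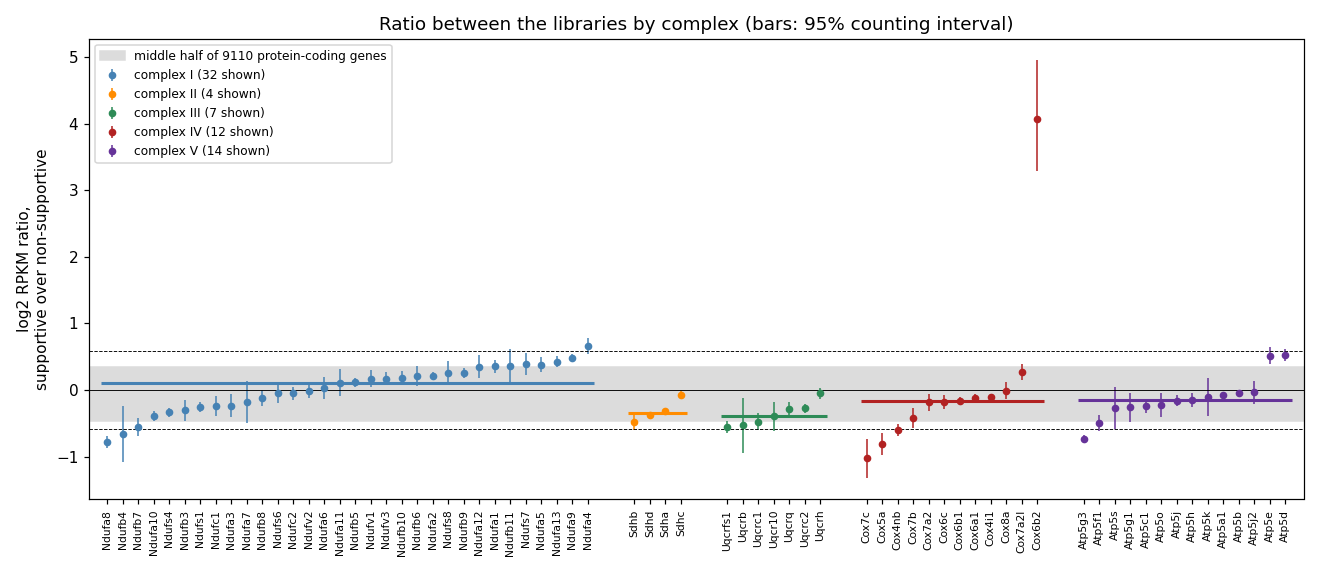
Log2 ratio of RPKM (vertical axis, no value added), supportive over non-supportive, for 69 of the 70 members in order within each complex. Bars are 95% counting intervals, coloured lines the median over all passing members of each complex on the scale with 0.1 added, the grey band the middle 50% of 9110 protein-coding genes and dashed lines a 1.5-fold ratio. All points of complexes II and III lie below 0, and Cox6b2 stands above the others.

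In complex I, the core subunits encoded in the nucleus hold the flavin and the iron-sulphur clusters, and those given here differed little. Ndufs7, which carries the last iron-sulphur cluster before ubiquinone, stood at RPKM 3.19 in supportive and 2.43 in non-supportive ISEMFs, a ratio of 1.31 (1.16 to 1.48). Ndufs1, the largest core subunit, had 9.48 and 11.3, a ratio of 0.840 (0.799 to 0.883). Ndufv1, Ndufv2 and Ndufs8 lay between, with log2 ratios from -0.01 to 0.26. None of these 5 reached 1.5-fold.

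The largest differences in complex I were in accessory subunits, which surround the core. Ndufa2 was the highest member of the complex, at RPKM 123 (supportive) and 107 (non-supportive), and Ndufa9, which lies near the ubiquinone site, had 62.0 and 44.6, a ratio of 1.39 (1.34 to 1.45). Ndufa4 (chr6:11850373-11857446, minus strand) had 1594 supportive and 979 non-supportive reads, or RPKM 45.3 and 28.7, a ratio of 1.58 (1.46 to 1.72). Ndufa8 (chr2:35891846-35904926, minus strand), a small cysteine-rich subunit facing the intermembrane space, went the other way, with 1880 against 3139 reads, or RPKM 30.6 against 52.5, which is 1.72-fold lower (1.62 to 1.82). None of the 50-base windows of the Ndufa8 transcript was found elsewhere in the genome with up to 2 mismatches, while 48.8% of those of Ndufa4 were. Ndufb4 (chr16:37647256-37654539, minus strand) had 81 and 124 reads, or RPKM 0.789 and 1.24, the lowest passing member of the complex in the supportive library, and Ndufa7, with 158 and 174 reads, was the lowest in the other. For Ndufb4, 46.6% of the 50-base windows were copied and the interval was wide, 1.18-fold to 2.11-fold lower.

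The other accessory subunits of complex I lay on both sides of 0. Ndufa1 stood at RPKM 60.1 and 47.0, Ndufb9 at 70.5 and 58.9, and Ndufa13 at 32.2 and 24.0, and Ndufa5 had 1495 and 1115 reads, all higher in supportive ISEMFs, with log2 ratios from 0.26 to 0.42. Ndufs4, whose loss causes a well known mouse model of mitochondrial disease, stood at 26.4 and 33.3, a ratio of 0.793 (0.754 to 0.833), and Ndufa10 had 2637 and 3367 reads, a ratio of 0.761 (0.723 to 0.801). Ndufb7 had 807 and 1150 reads, 1.47-fold lower (1.34 to 1.61). Ndufc2, Ndufa6 and Ndufs6 were close to even, with ratios of 0.966, 1.02 and 0.965. The main Ndufb8 row had 1234 and 1303 reads, and its second row, whose exon bases all overlap another annotated gene, had none.

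Complex II, succinate dehydrogenase, is the only complex of the chain encoded wholly in the nucleus, and all of its subunits were lower in the supportive library without reaching 1.5-fold. Sdhd, a membrane anchor, was the highest, at RPKM 71.1 in supportive and 92.5 in non-supportive ISEMFs. Sdhc, the other anchor, had 21.3 and 22.4, and Sdha, the flavoprotein that oxidises succinate, 31.8 and 39.4. Sdhb, the iron-sulphur subunit, was the lowest at 5.56 and 7.76 and the farthest apart, 1.40-fold lower (1.29 to 1.52). Of the 4 transcripts, only Sdhc had windows found elsewhere, 5.09% of them. Taken per length of the coding transcript instead of all exons of the gene, the levels ran from 12.3 (Sdhb) to 71.1 (Sdhd) in the supportive library.

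Complex III, the cytochrome bc1 complex, was lower in all 7 members that passed. Uqcrfs1, the Rieske iron-sulphur protein, had 1727 against 2465 reads, or RPKM 17.7 against 26.0, which is 1.47-fold lower (1.38 to 1.56). The core proteins Uqcrc1 and Uqcrc2 had ratios of 0.720 (0.659 to 0.787) and 0.825 (0.785 to 0.867). Uqcrh, the hinge protein, was the highest, at 26.2 and 27.1, and the closest to 1, with a ratio of 0.966 (0.912 to 1.02). Uqcrq and Uqcr10, small membrane subunits, had ratios of 0.821 (0.767 to 0.878) and 0.761 (0.654 to 0.885). Uqcrb was the lowest that passed, at 1.07 and 1.54, with 92.4% of its windows copied elsewhere. The eighth member, Uqcr11, had 64 and 45 reads and was the only one with more reads in the supportive library.

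Grouped by name, complex IV, cytochrome c oxidase, held the widest range of ratios only through Cox6b2. Its other passing members had log2 ratios from -0.99 (Cox7c) to 0.27 (Cox7a2l), against -0.78 to 0.66 in complex I. The 0.66 is that of Ndufa4, now usually counted with complex IV, and the next highest in complex I was Ndufa9 at 0.48. With Ndufa4 moved to complex IV, that complex had the wider range without Cox6b2 as well. Of the main nuclear subunits of complex IV, Cox4i1 was the highest, at RPKM 140 (supportive) and 150 (non-supportive), and Cox8a was the most even at 26.0 and 26.1. Cox5a (chr9:57369039-57380231, plus strand), which lies on the matrix side, had 509 against 868 reads, or RPKM 10.3 against 18.1, 1.75-fold lower (1.57 to 1.96). Cox7c (chr13:86184421-86186509, minus strand), a small membrane subunit, had 145 against 287 reads, or RPKM 1.79 against 3.65, 2.04-fold lower (1.66 to 2.50). For Cox5a, 38.7% of the exon bases overlap another annotated gene, Gm17596, and for Cox7c 72.7% of the windows are copied elsewhere, so both values are uncertain. Cox7b, another small membrane subunit, stood at 7.34 and 9.81, 1.34-fold lower (1.20 to 1.48). Cox6a1, Cox6c and Cox7a2 were closer, with ratios of 0.916, 0.884 and 0.881. Cox7a2l had 16.3 and 13.5. Cox4nb, not an oxidase subunit, had 4.78 and 7.26, 1.52-fold lower (1.43 to 1.62).

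The tissue forms of complex IV were rare in both libraries, and those with any read, that is all but Cox8c, had more reads in the supportive one. That library also had more reads on genes, and the share of other genes with so few reads that went the same way was not determined. Cox6b2 (chr7:4703396-4704696, minus strand), known as the testis form of a subunit at the contact between the monomers of the oxidase dimer, had 241 supportive and 14 non-supportive reads, or RPKM 6.12 and 0.366, a ratio of 16.7 (9.78 to 31.1). Its common partner Cox6b1 had 121 and 135, so that Cox6b2 made 4.82% (supportive) and 0.269% (non-supportive) of their summed RPKM. The muscle forms stayed below RPKM 1. Cox6a2 had 22 and 8 reads, a ratio of 2.67 (1.15 to 6.94), and Cox7a1 9 and 3 reads, a ratio of 2.92 (0.728 to 16.7). Cox4i2, the form known from lung, had 6 reads and 0, Cox8b 3 and 0, Cox7b2 1 and 0, and Cox8c none in either library. A count of 0 in a library of this size allows up to 3 reads, and 3 reads are 6.05e-06% of the non-supportive library. Ndufa4l2, a relative of Ndufa4 known from hypoxic cells, had 31 and 4 reads, a ratio of 7.53 (2.66 to 29.4). None of these 8 transcripts had a window copied elsewhere. Among markers of striated muscle, Ckm, Myh1 and Myh6 had no read in either library and Actc1 stood at RPKM 11.5 and 16.5, while Tnnt2 had 129.7 and 2.16, and the part of muscle-like expression in these values was not tested.

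**Figure D3:**
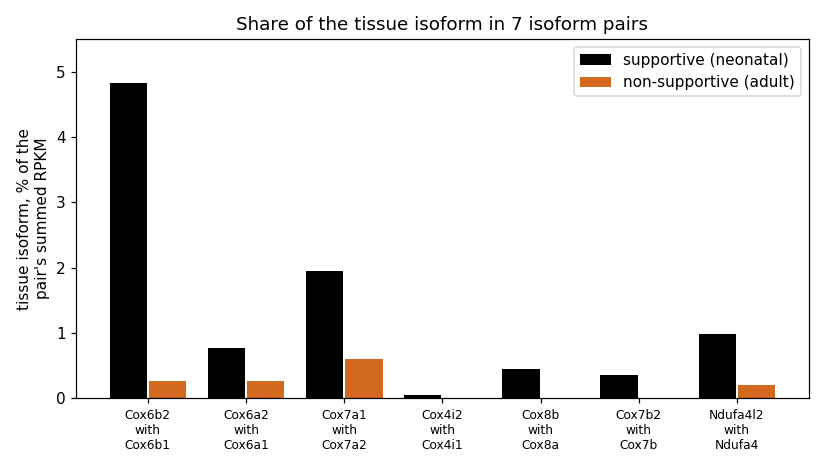
Share (%) of the tissue form in the summed RPKM of 7 isoform pairs, with 1 bar for each library. Cox6b2 is the largest, at 4.82% and 0.269%, and the supportive bar is the higher in each pair, although Cox4i2, Cox8b and Cox7b2 rest on 6 reads or fewer.

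Complex V was led by the F1 head, the catalytic part. Atp5b, the beta subunit that makes ATP, had 84203 and 84534 reads, or RPKM 224 and 231, the highest of all members, and Atp5a1, the alpha subunit, had 55.0 and 57.7. The small head subunits Atp5d (delta) and Atp5e (epsilon), which form the foot of the rotor with Atp5c1, were the only members of complex V above 0 among those that reached RPKM 1. Below that level, Atp5sl had 261 and 160 reads, a log2 ratio of 0.58. Atp5d stood at RPKM 9.58 against 6.68, a ratio of 1.43 (1.35 to 1.53), and Atp5e 10.1 against 7.08, a ratio of 1.43 (1.31 to 1.56), while Atp5c1 (gamma) had 5.78 against 6.82. The 4 members of the peripheral stalk, Atp5f1, Atp5h, Atp5j and Atp5o, were all below 0, with a median log2 ratio of -0.19. Atp5f1 was the farthest, at 2.47 and 3.49 (ratio 0.707, 0.651 to 0.768). The small membrane subunits Atp5j2 and Atp5k were nearly even, with ratios of 0.977 (0.866 to 1.10) and 0.931 (0.764 to 1.13).

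The c ring of complex V, through which protons pass, is encoded by 3 genes that give the same mature protein. Atp5g3 (chr2:73746504-73749383, minus strand) had 5323 against 8585 reads, or RPKM 26.1 against 43.3, 1.66-fold lower (1.60 to 1.72), the only member of complex V past 1.5-fold. Atp5g1 stood at RPKM 0.879 and 1.05, but 100% of the windows within its coding sequence are found elsewhere with up to 2 mismatches, so its level is uncertain. Atp5g2 had no read in either library, and 100% of its windows are found letter for letter elsewhere, as in the stretch printed above. The level of this gene could therefore not be measured here, and the make-up of the c ring is not known from these counts.

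Most members below RPKM 1 were of 2 kinds. The 7 tissue forms, named above, had no copied window and few reads. Of the other 10, 7 had at least 50% of their windows copied elsewhere with up to 2 mismatches, and the median over the 10 was 85.6%, beside 7.67% over the 70 members that passed. Of those 70, 12 also had at least 50% copied, such as Cox7a2l with 83.8% at RPKM 16.3 (supportive). Over the 80 members other than the tissue forms, copied share and supportive level per coding transcript had a Spearman's rho of -0.40. The part of copied sequence in the low levels was not tested. The 10 included essential subunits that respiring cells need: Ndufs3 with 64 and 45 reads and 83.9% of windows copied, Ndufs5 with 24 and 17 reads and 62.0%, Cox5b with 33 and 39 reads and 87.4%, and Atp5l with 5 and 7 reads and 95.9%. Ndufb2 (13.2%) and Atp5sl (0%) had few copied windows. Per length of the coding transcript, Ndufb2 stood at 1.10 (supportive) and 0.728 (non-supportive), and Atp5sl at 2.49 and 1.57. The second Ndufb8 row, with 2.84% of windows copied, had no read.

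Annotated copies of these genes carried reads of their own. Among annotated genes that match at least 10% of a member's windows and had at least 30 reads over both libraries, 26 pairs of a member and a copy could be compared, over 24 members. The copy had the same direction as the member in 21 pairs, and the counting intervals of their ratios overlapped in 25. Ndufs3 had 64 and 45 reads and its copy Gm12251 335 and 247. For Cox5b and Gm11273 the counts were 33 and 39 against 277 and 393. Ndufs5 had 24 and 17 reads, while BC002163 had 275 and 251. In 6 pairs the copy had more reads than the member in the supportive library. For the members past 1.5-fold, Ndufa4 had a ratio of 1.58 and its copy Gm14450 one of 1.69 (1.45 to 1.98), and Cox5a had 0.570 and its copy Gm11633 0.557 (0.487 to 0.637). Cox7c was the exception, with a ratio of 0.491 (0.399 to 0.602) against 0.768 (0.609 to 0.968) for Gm12338. Whether reads on the copies came from the members was not tested.

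**Figure D4:**
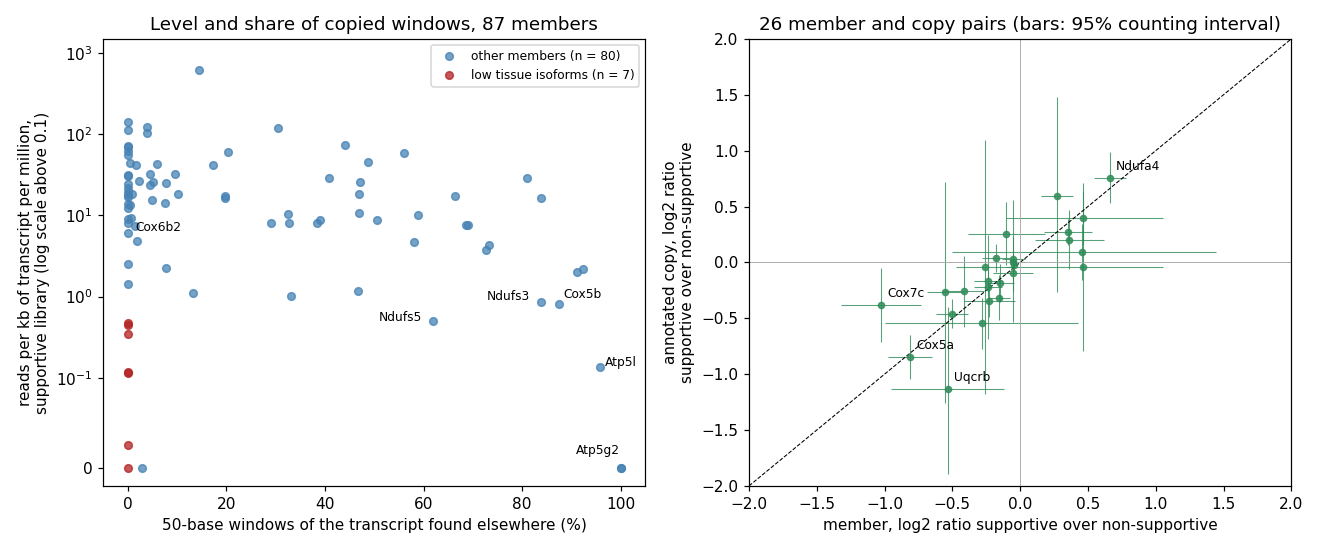
Left, share (%) of 50-base transcript windows found elsewhere in mm9 (horizontal) and reads per length of coding transcript and library size, supportive library (vertical, log above 0.1) for the 87 members, with the 7 low tissue forms in red. Right, log2 ratio of member and annotated copy for 26 pairs, with 95% counting intervals and a dashed line of equality. The tissue forms sit at 0% copied windows, Atp5g2 sits at 100% with no read, and Cox7c is the pair whose intervals do not overlap.

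The deposited length also bears on levels. RPKM was divided by the union of all exons, which for some members far exceeds the transcript that encodes the subunit. The union was 4522 bases for Ndufb7 and 5625 bases for Atp5f1, against coding transcripts of 623 and 1604 bases. Per length of the coding transcript, Ndufb7 stood at 18.1 (supportive) and 26.6 (non-supportive) in place of 2.50 and 3.66, and Atp5b at 615 and 635. Ratios between the libraries do not depend on the length.

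Those subunits of the mitochondrial genome that could be counted went against most nuclear-encoded members in complexes III and IV, but not in complex I. Of 13 listed, 7 reached RPKM 1, and all 7 were higher in supportive ISEMFs, the median log2 ratio being 0.49 beside -0.12 for the nuclear-encoded members. Of these, mt-Co1, the catalytic subunit of complex IV, had RPKM 535 and 299 and a log2 ratio of 0.84. For mt-Cytb of complex III the values were 2033 and 1161 with a log2 ratio of 0.81. The 5 complex I genes mt-Nd1, mt-Nd2, mt-Nd4, mt-Nd5 and mt-Nd6 lay between 0.23 and 0.51. The nuclear-encoded members of complex I also leaned above 0, with 19 of 33 above and a median of 0.10. In complexes III and IV the mitochondrially encoded subunits were thus above 0 while 7 of 7 and 10 of 12 nuclear-encoded members were below 0. The other 6, mt-Co2, mt-Co3, mt-Atp6, mt-Atp8, mt-Nd3 and mt-Nd4l, had at most 2 reads in either library, and 100% of their windows are found elsewhere in mm9 with up to 2 mismatches, and 99.0 to 100% letter for letter. For mt-Co1, which had 59064 and 32109 reads, the shares were 94.8% with up to 2 mismatches and 51.1% letter for letter. Mitochondrial genes, mostly ribosomal RNA, took 14.6% (supportive) and 7.85% (non-supportive) of all counted reads, and the part of RNA selection in this difference was not tested.

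**Figure D5:**
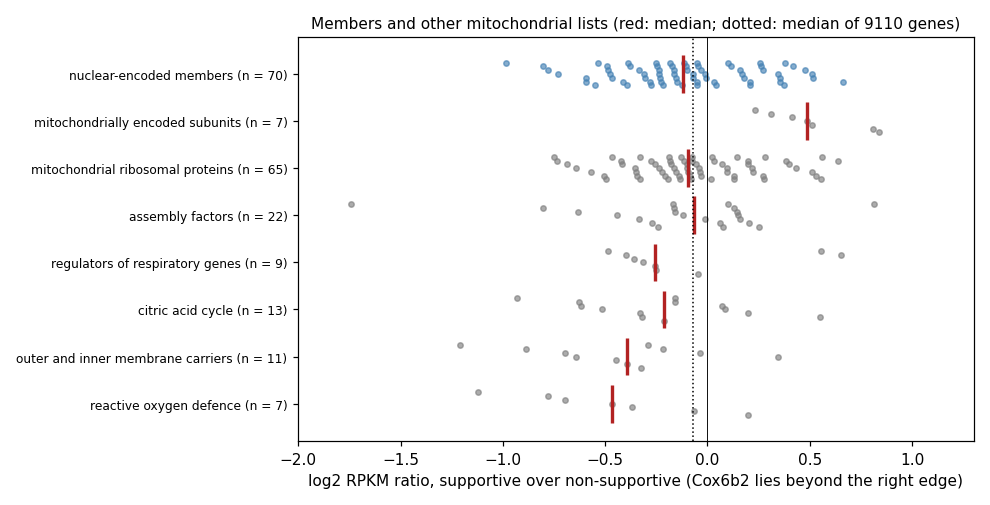
Log2 ratio of RPKM, supportive over non-supportive, for each gene that reached RPKM 1 (points) of the nuclear-encoded members and 7 other mitochondrial lists, with the median in red and the median of 9110 protein-coding genes dotted. The mitochondrially encoded subunits (median 0.49) lie right of 0, and the reactive oxygen defence genes have the lowest median, at -0.47.

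Other mitochondrial genes were counted by the same rule, against the 16.7% of protein-coding genes that were 1.5-fold higher and the 19% that were lower. Of the mitochondrial ribosomal proteins, which make the mitochondrially encoded subunits, 65 of 77 passed, 1 was 1.5-fold higher and 4 were lower, with a median log2 ratio of -0.10. Of the assembly factors, 22 passed, 1 was higher and 3 were lower, with a median of -0.07. The farthest was Tmem70, which is needed to build complex V, with 1238 against 4046 reads and a log2 ratio of -1.74, and Ndufaf3 and Ndufaf4, both factors for complex I, had 0.82 and -0.80.

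The citric acid cycle genes had a median log2 ratio of -0.21, with 3 of 13 lower (23.1%, near the 19% of all genes), among them Idh3a at 11.0 against 21.0. The carriers and pores of the mitochondrial membranes had a median of -0.39, with 4 of 11 lower, and Vdac1, the main pore of the outer membrane, was at 15.1 against 35.0. For reactive oxygen defence, 3 of 7 were lower, with a median of -0.47, and the cytosolic dismutase Sod1 had 56.2 against 122. Among subunits and carriers whose names fall outside the rule, 3 of 8 were lower, with a median of -0.23, including Ndufab1 at 0.829 against 1.31. Of the regulators of respiratory genes, 9 of 14 passed, with a median log2 ratio of -0.26, 7 of them below 0 and 2 above (Tfb1m and Tfam). Only Tfb1m, a mitochondrial methyltransferase, was past 1.5-fold, at 3.04 against 1.90. Tfam, which packages and transcribes mitochondrial DNA, had 6.45 and 4.36, a ratio of 1.48 (1.39 to 1.58). The coactivator Ppargc1a had 2 and 43 reads and did not pass.

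The promoters of respiratory genes are known to share binding motifs of NRF1, of GABP (an ETS factor) and of YY1. The letters GCGCANGCG (NRF1), CCGGAAG (ETS), AAGATGGCG (YY1) and GGGCGG (SP1) were searched on both strands of the RefSeq promoter windows, 250 bases before to 50 after each start, which were found for 66 members. A gene counts if any of its windows holds the letters, and none of the motifs contains another. At least 1 of the first 3 was present for 53.0% of the 66 members and 53.6% of the 56 that reached RPKM 1. The share was 36.0% of 6528 protein-coding genes that reached RPKM 1, and 14.8% of all 32851 windows taken singly. NRF1 letters were present for 28.6% of the 56 members and 16.7% of those genes, ETS letters for 23.2% and 20.9%, and YY1 letters for 12.5% and 3.91%. SP1 letters were present for 41.1% and 71.9%. With the 250 upstream bases alone, the share with any of the 3 was 30.4% for the 56 members and 28.3% for the genes. By complex, with members below RPKM 1 included, the share over all 300 bases was 10 of 13 members of complex V, 16 of 32 of complex I and 3 of 13 of complex IV. It was 3 of 3 for complex II and 3 of 5 for complex III. Over 14826 protein-coding genes of any level the share was 22.2%, near the 23.1% of complex IV.

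Upstream stretches are shown for 3 members with such letters and for Cox6b2, which has none of the 3. Each is 100 bases on mm9, on the minus strand, ending at the last base before the annotated gene, with NRF1, ETS or SP1 letters in capitals. The letters were read from RefSeq windows of GRCm38.p6 and each stretch was placed on mm9 by an exact and single match. A match is a description of letters and does not show that a factor binds there.
Sdhd, chr9:50411955-50412054 (NRF1, then ETS on the opposite strand): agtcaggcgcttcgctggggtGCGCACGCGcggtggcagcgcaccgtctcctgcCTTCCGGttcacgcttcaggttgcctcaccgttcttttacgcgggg
Atp5e, chr2:174289607-174289706 (ETS on the opposite strand, then SP1): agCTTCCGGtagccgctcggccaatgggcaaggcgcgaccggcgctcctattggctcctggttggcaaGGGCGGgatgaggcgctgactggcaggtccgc
Uqcrh, chr4:115747677-115747776 (ETS on the opposite strand): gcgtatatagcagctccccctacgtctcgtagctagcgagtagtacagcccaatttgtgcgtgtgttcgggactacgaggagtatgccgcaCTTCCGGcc
Cox6b2, chr7:4704697-4704796 (none): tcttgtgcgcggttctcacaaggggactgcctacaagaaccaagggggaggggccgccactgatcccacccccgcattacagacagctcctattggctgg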

How the data were processed

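RNA of 1 supportive and 1 non-supportive ISEMF culture was sequenced by the authors as single-end 50-base reads, aligned to mm9 with TopHat (TopHat2 2.0.4 in the submitters' processing notes) with Ensembl genes and up to 2 mismatches, keeping unique hits, and counted per gene with HTSeq 0.5.4p3. The deposited counts are unnormalized whole reads for each gene. The deposited RPKM values divide these by the summed exon length (union of exons) and a library size of 71463423 (supportive) or 69449374 (non-supportive) reads. The deposited table also holds the authors' log2 ratio and DESeq p-values, which were not used, and a shorter deposited table of Wnt pathway genes holds no member. The Ensembl release was not given in the sources used here. The deposited exon length equals that of GENCODE vM1, from which coordinates were taken, for 46 of 87 members.

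The members and all gene lists were chosen with earlier results of these data known. Genes named are the members past 1.5-fold, the highest and lowest member of each complex, the tissue forms, and the farthest genes of the other lists; further members are named for their role in a complex, and the pairs with copies and the sequences were chosen after their values were seen. For log2 ratios, 0.1 was added to each RPKM, and genes that reached RPKM 1 in either library were counted. Intervals are exact Clopper-Pearson intervals at 95% of the share of reads, scaled by library size. With 1 library a group no test was run, and edgeR's exact test served only as an alternative with an assumed coefficient of variation. Each 50-base window of 1 coding transcript a member was searched for in mm9 on both strands with up to 2 mismatches. The ratio and interval steps were tested on simulated data. The tools were edgeR 4.0.16 and, for size factors only, DESeq2 1.42.0 in R 4.3.3, and scipy 1.17.1, numba 0.67.0, pandas 2.3.3, numpy 2.4.6 and matplotlib 3.10.9 in Python 3.11.15. Other settings tried were a 2-fold limit, other library scalings, a minimum of RPKM 5 or none, and pseudocounts of 0.001 and 1. Protein sequences were not analysed here, and 1 member is counted in the totals but not reported by itself.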

Additional observations from a re-analysis of the deposited data

How the results depend on the processing

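The median log2 ratio of the members was -0.12 and stayed below 0 under each of 11 alternatives. It was -0.10 with a pseudocount of 1, -0.069 with a minimum RPKM of 5, -0.0492 with no minimum, -0.0652 with TMM factors, -0.0806 with median-of-ratios size factors, -0.0478 without mitochondrial reads in the library size and -0.0537 with RPKM rescaled to a median of 0, a shift of 0.07 for every gene. The median-of-ratios size factors were 1 for both libraries, so that setting only left out the scaling by library size. With settings added after the data were seen, it was -0.11 without Cox4nb, Atp5s, Atp5sl and Atp5l-ps1, -0.10 with the reads of annotated copies added to each member, and -0.0591 over the 38 members with under 10% of windows copied. The median of complex I stayed above 0 (0.07 to 0.17) and those of the other 4 complexes below 0 in all 11.

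The 8 members past 1.5-fold became 13 with no minimum RPKM, 4 of 38 over members with few copied windows, and 1, Cox6b2, with a 2-fold limit, where 18.2% of all genes passed. edgeR's exact test at an adjusted p of 0.05 called 1 member with an assumed coefficient of variation of 0.2 and 1 with 0.4, beside 16.4% and 4.74% of all genes, and that member was Cox6b2 both times. Cox4nb and Ndufb4 dropped out under each of the TMM, median-of-ratios, mitochondrial and rescaled settings. The log2 ratio of Cox6b2 ran from 2.38 (pseudocount of 1) to 4.06 (0.001). The share of passing members with NRF1, ETS or YY1 letters fell from 53.6% to 30.4% of 56 with the upstream bases alone. These changes follow from how each setting is built. No paired analysis was possible because each group has 1 library and the labels give no replicate numbers, and no replicate could be left out. Intervals and the limit of 3 reads cover counting error only, and the spread between cultures is unknown.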

Other observations

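Complex V and complex I each held members that went against their neighbours. In complex V the delta and epsilon subunits of the ATP synthase, Atp5d and Atp5e, had log2 ratios of 0.51 and 0.51, while the c-ring gene Atp5g3 had -0.73 and the stalk gene Atp5f1 -0.48. In complex I, Ndufa9, Ndufa13, Ndufs7 and Ndufa5 had 0.48, 0.42, 0.38 and 0.38, while Ndufa8, Ndufb7, Ndufa10 and Ndufs4 had -0.78, -0.53, -0.39 and -0.33. For Ndufa13, which is also known as a cell death regulator, 30.2% of the exon bases overlap Tssk6, and for Atp5o 44.0% overlap other genes, where reads may not have been counted for either gene, and whether the counting used strand was not given in the sources used here. Ndufb6 was at 12.7 and 11.0 with 39.0% overlapping 2010003O02Rik.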
